A study of Mus musculus with 2 samples.

Results

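The genes of calcitonin gene-related peptide (CGRP) signalling were examined on 2 Affymetrix arrays of mouse peritoneal macrophages. All cells came from male C57BL/6 mice; 1 array measured macrophages transfected with a control siRNA and 1 array macrophages transfected with HDAC9 siRNA, which targets a class IIa histone deacetylase, both 48 h after transfection. The labels do not say whether several mice were pooled, and give no age. The 6 genes named for the pathway were the peptide genes Calca and Calcb, the receptor gene Calcrl and its partner genes Ramp1, Ramp2 and Ramp3. Members were all probe sets whose single gene symbol in the array annotation is one of these names, which gave 9 probe sets for 5 genes, of 34945 single-symbol probe sets for 18193 genes. Calca was not analysed here. The genes were chosen by pathway with results of these arrays known, selected on the signals and on the difference between the arrays; their values are a description and no test was made of them.

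CGRP is a peptide best known from sensory nerves, where it dilates blood vessels and acts on nearby immune cells. Its receptor forms when CALCRL, a G protein-coupled receptor, pairs with the small membrane protein RAMP1; paired with RAMP2 or RAMP3, CALCRL binds adrenomedullin instead. The CGRP receptor couples through Gs to cyclic AMP (cAMP) and protein kinase A, and in macrophages this route is known to dampen the release of inflammatory cytokines.

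Each group had 1 array, so replicate error could not be estimated, no test could be made, and every difference below is between 2 arrays. Values are deposited log2 signals, and differences are HDAC9 siRNA minus control. A background floor of log2 6.34, a linear signal of 80.9, was the 95th percentile of 80 probe sets for olfactory and vomeronasal receptors, and lower signals were raised to it before a difference was taken. Where 1 of the signals was at the floor, the difference is a bound. As a guide to technical scatter, the differences of the 2 brightest probe sets of the same gene had a standard deviation of 0.29 log2 units per probe set over 5671 genes, and of 0.40 over 725 genes with a log2 mean signal from 7.5 to 8.5, where Calcb, Calcrl and Ramp1 lie. This scatter includes differences with a signal raised to the floor, which can make it smaller, and leaves out differences between cultures.

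The siRNA target was near background: its brighter probe set for Hdac9 read 6.88 with control siRNA and 5.69, below the floor, with HDAC9 siRNA, and the other read 5.99 and 5.94. Macrophage markers were bright on both arrays. Of 12 macrophage markers with a probe set, 11 were above background, with 5 lower, 6 higher and a median difference of 0.00036. Among them were the lysozyme gene Lyz2 (14.72 on both arrays) and Gata6, a factor of large peritoneal macrophages (10.74 and 11.20). Cd14 differed most (12.86 and 12.40, a difference of -0.46), and Timd4 was below the floor on both.

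Calcb and both subunits of the CGRP receptor were lower on the HDAC9 siRNA array. Of the 9 probe sets, 3 were above background on both arrays, 2 on the control array only and 4 on neither. Of the 5 genes, each represented by its brightest probe set, 4 exceeded the floor on at least 1 array, and 1 of these, Calcb, was at least 2-fold lower while 0 were at least 2-fold higher. Among all 12090 genes above background, 0.372% were at least 2-fold lower and 1.44% at least 2-fold higher, and their median difference was 0.03. At 1.5-fold, 3 of the 4 genes were lower (Calcb, Ramp1 and Calcrl), against 2.79% of all genes, and 0 were higher, against 7.81%. When the genes were split by mean signal into 4 equal bins, in the bin that holds Calcb, Ramp1 and Calcrl 0.397% were at least 2-fold lower and 3.31% at least 1.5-fold lower. Without the floor, 8 of the 9 probe sets had a lower deposited signal on the HDAC9 siRNA array, as did 46.1% of all single-symbol probe sets.

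**Figure D1:**
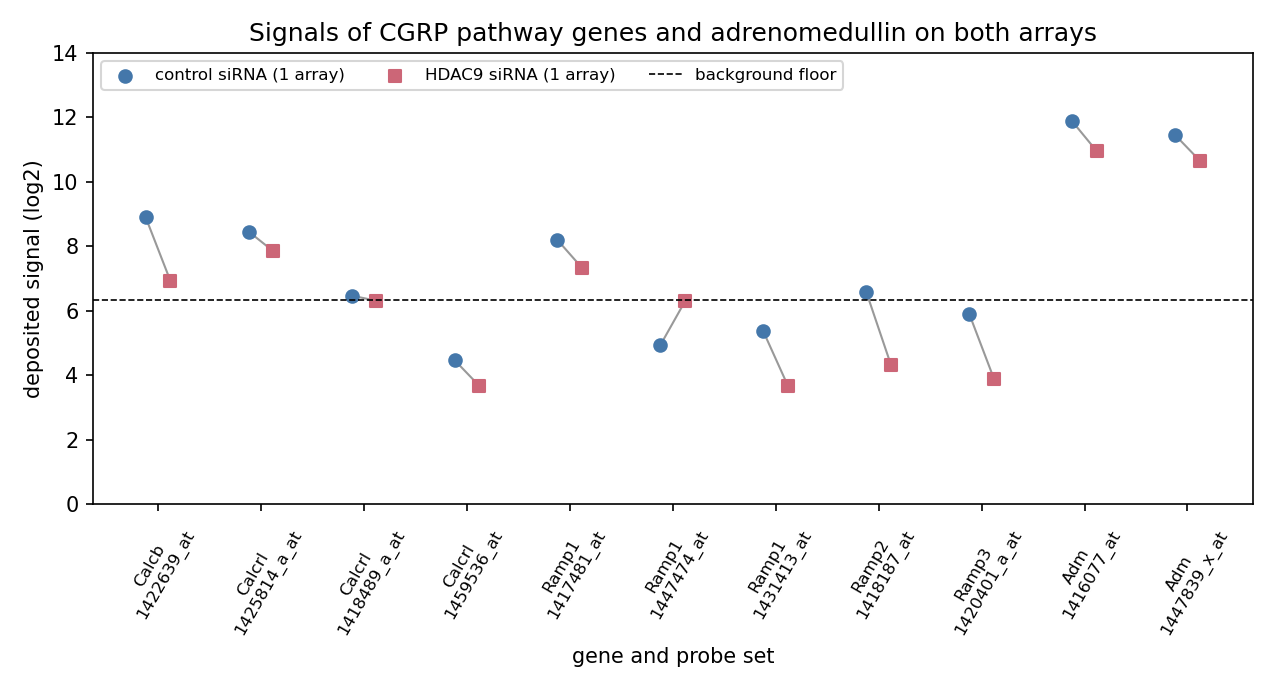
Deposited log2 signal (vertical axis) of the 9 probe sets for CGRP pathway genes and the 2 for Adm on the control siRNA array (circles) and the HDAC9 siRNA array (squares), with lines joining the arrays and a dashed line at the floor of 6.34. Calcb, the brightest probe sets of Calcrl and Ramp1, and both of Adm sit above the floor on both arrays and are lower on the HDAC9 siRNA array; the Ramp1 probe set 1447474_at is the one that is higher there, with both its signals below the floor.

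Calcb encodes the precursor of beta-CGRP and was the member with the largest difference once signals below the floor were raised to it. Its only probe set, 1422639_at, read 8.90 with control siRNA and 6.93 with HDAC9 siRNA, linear signals of 477 and 122. The difference was -1.97, or 3.92-fold lower, and both signals were above the floor. No second probe set carried the symbol, so the value rests on 1 probe set. In the RefSeq gene order Calcb lies on chromosome 7 beside Calca, the gene of calcitonin and alpha-CGRP, with 0 protein-coding genes between them.

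The genes whose pattern was most like that of Calcb were sought among 1855 genes above background on both arrays with a log2 mean signal within 0.5 of its own, by the difference between the 2 arrays. Nearest was the carboxylesterase gene Ces5a, which read 9.19 and 7.21, a difference of -1.98. Its other probe sets did not share that difference: 1458331_x_at read 5.41 and 6.56, and 1432406_at was below the floor on both arrays. Next came the carbonyl reductase gene Cbr2 (8.68 and 7.13, a difference of -1.56), the snoRNA host gene Snhg3 (9.02 and 7.72, -1.30), the glutathione transferase gene Gstt3 (8.47 and 7.26, -1.21) and AA414768 (8.85 and 7.67, -1.18). After Ces5a, the gap to Calcb was thus 0.41 log2 units or more. Likeness over 2 arrays is a likeness of 1 difference only.

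**Figure D2:**
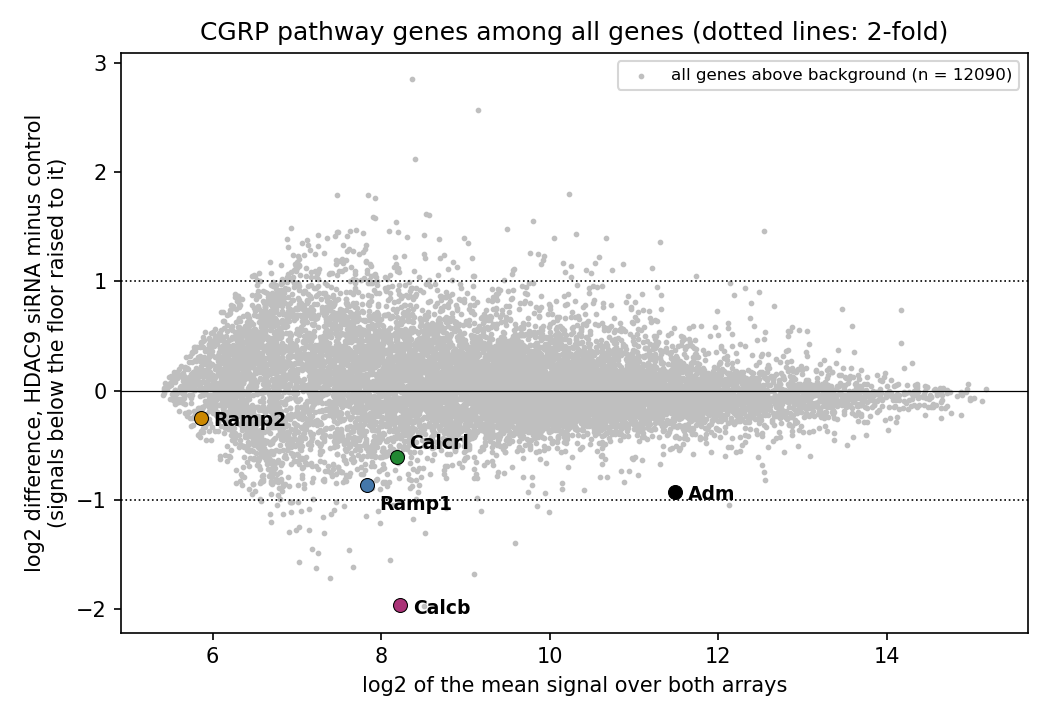
Each grey point is 1 of the 12090 genes above background, placed by the log2 of its mean signal (horizontal axis) and its log2 difference, HDAC9 siRNA minus control (vertical axis, signals below the floor raised to it); dotted lines mark 2-fold. Calcb at -1.97 lies at the lower edge of the cloud, Ramp1 (-0.87), Calcrl (-0.61) and Adm (-0.93) lie between 1.5-fold and 2-fold lower, and Ramp2 is a bound near the floor.

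Calcrl encodes the seven-helix receptor that all 3 RAMP proteins share. Its brightest probe set, 1425814_a_at, read 8.46 with control siRNA and 7.85 with HDAC9 siRNA, a difference of -0.61 or 1.53-fold lower. The second, 1418489_a_at, was at the floor, with 6.48 and 6.32, and gave a bound of -0.14. The third, 1459536_at, read 4.48 and 3.68, below the floor on both arrays. All 3 probe sets had the lower signal on the HDAC9 siRNA array, but only the brightest measured a difference above background. The median over the gene's probe sets above background was -0.37, within the 0.40 scatter of probe sets at this signal.

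Ramp1 encodes the partner that makes CALCRL a CGRP receptor. Probe set 1417481_at read 8.20 with control siRNA and 7.33 with HDAC9 siRNA, which is 294 against 161 in linear signal and a difference of -0.87, or 1.83-fold lower. Its other probe sets were below the floor on both arrays and disagreed in direction: 1431413_at read 5.36 and 3.67, and 1447474_at read 4.94 and 6.31. Both subunits of the CGRP receptor were therefore measured lower by their brightest probe set, and neither was at least 2-fold lower.

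Ramp2 and Ramp3 encode the partners that give CALCRL its affinity for adrenomedullin. Ramp2 was barely detected: 1418187_at read 6.59 with control siRNA and 4.32 with HDAC9 siRNA, so Ramp2 was at least 1.19-fold lower. Ramp3 was below the floor on both arrays, with 5.91 and 3.90, and no fold is given. Deposited signals of these genes differed by -2.26 and -2.01. Of 14618 probe sets with a mean signal below the floor, 10.9% had a deposited signal at least 4-fold lower on the HDAC9 siRNA array, as these 2 had.

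For Ramp2 a further pair of probe sets exists that the annotation assigns to both Ramp2 and Vps25, the next gene along chromosome 11, which encodes a subunit of the ESCRT-II sorting complex. They fall outside the members, because their signal cannot be assigned to 1 gene. They read 10.26 and 9.56 (1421051_s_at) and 10.69 and 10.30 (1428621_a_at), differences of -0.70 and -0.39. The probe set for Vps25 alone read 6.96 and 6.30, at least 1.54-fold lower. All of these were lower on the HDAC9 siRNA array, and the part of each gene in the shared signal was not tested.

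Upstream sequence is shown for Calcrl and Ramp1, the receptor subunits that were both lower by their brightest probe set. Of the 6 named genes, 4 had an entry in the RefSeq promoter table of GRCm38.p6; Calcb and Ramp2 had none. The 250 bases before the start are printed 5′ to 3′ on the gene's strand, with GC boxes (GGGCGG) and E-boxes (CANNTG) in capitals, searched on both strands. For Calcrl (chr2:84425267-84425516, minus strand) the RefSeq span of the gene reaches 139 bases further upstream than this start; the Ramp1 window (chr1:91179572-91179821, plus strand) ends where the span begins.
Calcrl: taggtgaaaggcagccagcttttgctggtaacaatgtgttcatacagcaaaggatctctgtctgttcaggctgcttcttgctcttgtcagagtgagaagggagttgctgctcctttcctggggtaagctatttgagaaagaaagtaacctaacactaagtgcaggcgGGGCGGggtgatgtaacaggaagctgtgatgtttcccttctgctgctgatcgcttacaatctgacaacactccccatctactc
Ramp1: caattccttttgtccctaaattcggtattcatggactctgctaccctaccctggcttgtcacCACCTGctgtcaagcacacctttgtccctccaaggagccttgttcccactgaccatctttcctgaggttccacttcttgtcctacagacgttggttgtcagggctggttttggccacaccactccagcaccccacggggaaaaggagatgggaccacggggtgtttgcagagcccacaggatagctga
The Calcrl window held 1 GC box, 83 to 78 bases before the start, and 0 E-boxes. The Ramp1 window held 1 E-box, 188 to 183 bases before the start, and 0 GC boxes. Among 32851 windows of the same length in the table, 32.7% held a GC box and 66.2% an E-box. The cAMP response element half-site (TGACG), present in 17.8% of windows, its full form (TGACGTCA), in 1.55%, and the MEF2 site, in 2.92%, were not among the letters of either window. The half-site lies within the full form, so these 2 searches overlap. The windows shared no motif of those searched.

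Among the other genes of the calcitonin family, Adm was the brightly measured one and was lower as well. Adm encodes adrenomedullin, the peptide that binds CALCRL with RAMP2 or RAMP3. Probe set 1416077_at read 11.88 with control siRNA and 10.95 with HDAC9 siRNA, a difference of -0.93 or 1.91-fold lower, and 1447839_x_at read 11.46 and 10.66, a difference of -0.80. Both Adm probe sets thus gave the same direction, by more than the 0.29 scatter of single probe sets. Crcp, which encodes a receptor component protein that aids coupling of the CGRP receptor and is also a subunit of RNA polymerase III, read 9.73 and 9.39, a difference of -0.33. Adm2 (5.20 and 3.99) and the calcitonin receptor gene Calcr (0.071 and 4.98) were below the floor on both arrays. Iapp, the amylin gene, was above it by 0.02 on the HDAC9 siRNA array only, by 1 of its 4 probe sets. Of these 5 genes, 0 were past 2-fold in either direction.

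Genes that make and break down such peptides showed no common direction. Of 16 with a probe set, 8 were above background and 0 were past 2-fold, with 5 lower, 3 higher and a median difference of -0.05 beside 0.03 over all genes. The largest differences were those of Ece1, an endothelin-converting enzyme that cleaves CGRP inside endosomes (8.21 and 7.78, -0.44), Mme, the peptide-degrading enzyme neprilysin (5.22 and 6.76, a bound of 0.42), Furin, a precursor convertase (9.29 and 9.57, 0.28), and Cpe, a carboxypeptidase that trims precursors (12.41 and 12.15, -0.27). Pam, the enzyme that amidates the end of CGRP, read 8.89 and 9.08; it was chosen after its values were seen. The neuroendocrine convertase gene Pcsk1 and the granule genes Chga, Chgb and Scg2 were below the floor on both arrays.

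Downstream of the receptor, the Gs, cAMP and protein kinase A genes were balanced. Of 26 above background, 13 were lower and 13 higher, and the median difference was 0.02. Among all genes above background, 45.9% were lower, 0.372% at least 2-fold lower and 1.44% at least 2-fold higher. Gnas, the gene of the Gs alpha subunit, read 13.61 and 13.60. The adenylate cyclase gene Adcy1 was the 1 gene past 2-fold, at least 2.12-fold higher (6.19, below the floor, and 7.42); its second probe set gave a bound of 0.24. Next were the coactivator gene Crtc1 (6.04 and 7.17, a bound of 0.83), the cyclases Adcy6 (7.41 and 8.23, 0.82) and Adcy2 (6.06 and 7.04, a bound of 0.70). These 4, named for the size of their difference, were all higher on the HDAC9 siRNA array and dim on the control array. Large differences were more often higher over all genes too: 7.81% were at least 1.5-fold higher and 2.79% at least 1.5-fold lower.

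Phosphodiesterases, which break down cAMP, were split evenly: 6 lower and 6 higher of 12 above background, 0 past 2-fold, with a median of 0.03. The share lower over all genes above background was 45.9%. Pde4a (6.41 and 7.21, 0.80), Pde10a (6.30 and 6.89, a bound of 0.55), Pde2a (8.89 and 8.42, -0.47) and Pde7b (9.77 and 10.21, 0.44) differed most by their brightest probe sets. The other Pde2a probe sets above background went the opposite way: 1447708_x_at read 7.22 and 8.43, 2.31-fold higher, and 1452202_at read 6.93 and 7.42. Kinases, arrestins and trafficking proteins that desensitise and recycle such receptors had 0 of 11 genes past 2-fold and a median of 0.02. The dynamin gene Dnm2 (8.84 and 9.39, 0.55), the receptor kinase genes Grk3 (8.71 and 9.06, 0.35) and Grk5 (8.79 and 8.55, -0.24), and Rab5a of early endosomes (12.59 and 12.46, -0.14) differed most.

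The genes listed as cAMP response genes showed no common direction. Of 18 above background, 8 were lower and 10 higher, with a median of 0.05. Over all genes above background, 45.9% were lower and 1.44% at least 2-fold higher. In the list, 2 were at least 2-fold higher: the immediate-early gene Egr1 (9.54 and 10.62, 1.08) and the cytokine gene Il6 (8.05 and 9.11, 1.06). Nr4a2, an orphan nuclear receptor gene, had a bound of 0.57 (5.33 and 6.91), and Ptgs2, a prostaglandin synthase gene, a difference of 0.45 (7.11 and 7.56), by their brightest probe sets. A dimmer probe set of each went the opposite way: 1447863_s_at of Nr4a2 had a bound of -0.28, and 1417263_at of Ptgs2 a difference of -0.18. The list is not specific to cAMP: Egr1, Il6 and Ptgs2 are also induced by inflammatory signals. Crem, which encodes a cAMP-responsive repressor, read 9.74 and 9.54, a difference of -0.20, and was chosen after its values were seen. Il10, also chosen so, read 6.74 and 5.94, a bound of -0.40. Rgs2 and Per1 were chosen in the same way. Rgs2 read 11.50 and 11.07, a difference of -0.43, and its other probe sets above background were lower too (-0.59 and -0.52). Per1 read 7.79 and 8.22, a difference of 0.43.

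**Figure D3:**
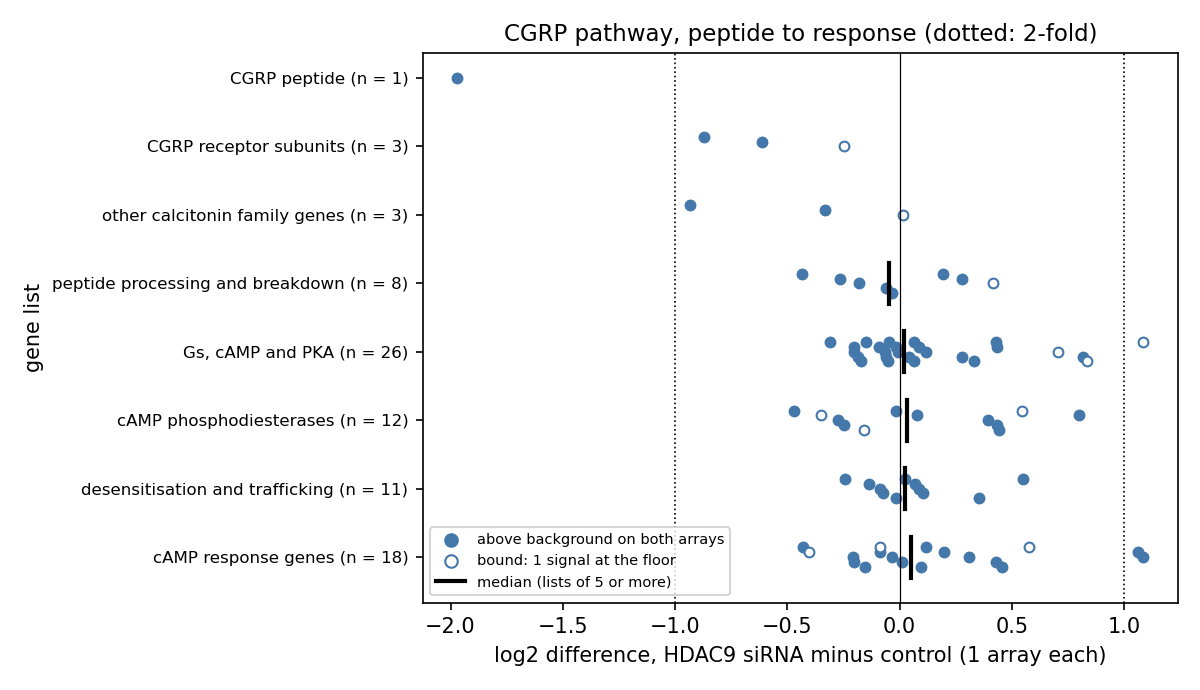
Log2 difference, HDAC9 siRNA minus control (horizontal axis), of each gene above background in 8 lists from peptide to response; filled points were above background on both arrays, open points are bounds, and black bars are medians of lists with 5 or more genes. The peptide, receptor and adrenomedullin genes lie to the left of 0. The list medians shown run from -0.05 for peptide processing and breakdown to 0.05 for cAMP response genes, and those downstream of the receptor from 0.02 to 0.05.

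Cells other than macrophages can carry these genes, and markers fixed for such cells were read on the same arrays; in bulk RNA, fewer cells of a type and less RNA per cell cannot be told apart. Sensory neurons are the classic source of CGRP: of 11 neuronal markers with a probe set, 2 were above background (Prph and Uchl1, on the HDAC9 siRNA array only), the defining genes Scn10a and Trpv1 were below the floor on both arrays, and linear signals summed to 485 with control siRNA and 531 with HDAC9 siRNA. These sums, like those of the other marker lists here, include signals below the floor, which make up much of a list with few markers above background and then give no level of those cells. Endothelial cells are rich in Calcrl and Ramp2: 7 of 15 markers were above background, with summed signals of 1447 and 1986. Of these 7, 1 was lower (Esam, -0.10) and 6 were higher, beside 45.9% lower over all genes above background. Their median was 0.39, the value of Flt1 by its brightest probe set, and 0.19 by the median over probe sets. Other Flt1 probe sets above the floor were lower: 1454037_a_at at -0.04 and 1440926_at at a bound of -0.56. Kdr (8.18 and 8.36) and Vwf (7.78 and 8.24) were above the floor on both arrays. The defining endothelial genes Cdh5, Pecam1, Tie1 and Cldn5 were below the floor on both arrays, and Flt4, a receptor of lymphatic endothelium, was 2.69-fold higher (7.62 and 9.05) by its brighter probe set and at a bound of 0.24 by the other.

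Some markers of other cells were lower together with Calcb and the receptor genes. Of 11 T and B cell markers with a probe set, 4 were above background and all 4 were lower, as were 45.9% of all genes above background. By their brightest probe sets they ran from Cd28 at -0.64 through Thy1 (-0.72) and Lat (-0.77) to Cd8a at a bound of -0.79. A second Cd28 probe set, 1437025_at, read 9.26 and 8.23, a difference of -1.03. Signals of the list summed to 1784 and 1121. Cd8a exceeded the floor only by 1440164_x_at on the control array (7.13 and 4.65). Its other probe sets were below the floor on both arrays and disagreed in direction. The defining T cell receptor genes Cd3d, Cd3e and Cd3g and the B cell genes Cd79a and Ms4a1 were below the floor on both arrays. Of 16 mesothelial and stromal markers, all 16 were above background, with 8 lower, 8 higher and a median of 0.05. Their signals summed to 52952 and 68042. Among them Msln (-1.11) was at least 2-fold lower and Krt7 stood at -0.99, while the collagen genes Col1a1 (1.80) and Col3a1 (1.46) exceeded 2-fold in the other direction. The mesothelial markers did not share 1 direction. Krt8, Krt18 and Krt19 were lower, the brighter Lrrn4 (0.56), Wt1 (0.44) and Upk3b (0.24) were higher, and Upk1b stood at -0.02. The part of these cells in the values of Calcb, Calcrl, Ramp1 and Adm was not tested.

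The lower values of Calcb, Ramp1 and Calcrl kept their direction under every scaling tried. Calcb ran from -2.07 with quantile normalization to -1.96 without a floor, so it was at least 2-fold lower under each choice. Ramp1 ran from -0.98 with quantile normalization to -0.87 without a floor, and Calcrl from -0.70 with quantile normalization to -0.37 by the median over its probe sets. Adm ran from -0.99 when arrays were centred on the median to -0.86 by the median over its probe sets. Ramp2 was the exception in size, since its HDAC9 siRNA signal is below the floor and the bound follows the floor.

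**Figure D4:**
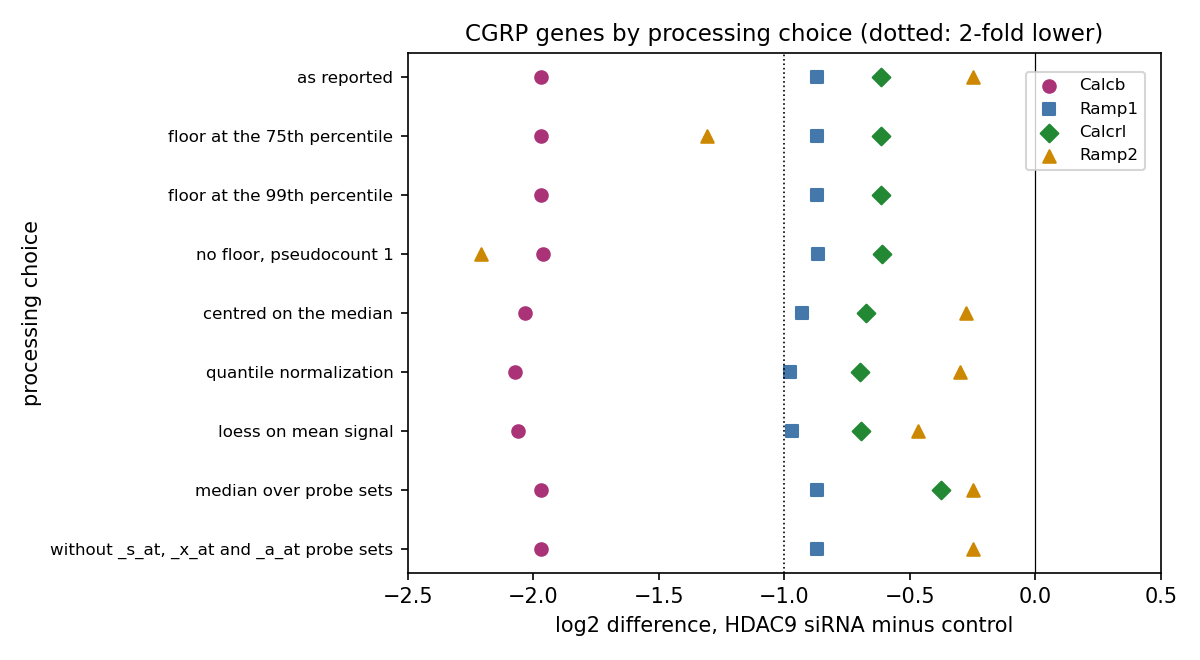
Log2 difference, HDAC9 siRNA minus control (horizontal axis), of Calcb, Ramp1, Calcrl and Ramp2 under the reported processing and each alternative (rows); a missing point means that no probe set was left above background. Calcb (-2.07 to -1.96) and Ramp1 (-0.98 to -0.87) move little. Calcrl runs from -0.70 to -0.37 and has no point without the _s_at, _x_at and _a_at probe sets. Ramp2 moves from -0.25 to -2.21 as the floor is lowered and removed.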

How the data were processed

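RNA from 2 samples, 1 per group, was hybridised to Affymetrix arrays after biotin labelling, per the labels' protocols. The deposited table gives each probe set's signal as a log2 value; the submitters' processing notes name MAS5 (version and scaling: not given in the sources used here). Scaling by the authors was kept: over 45037 probe sets the trimmed linear mean (2% off each end) was 497 on both arrays, and 51.4% and 53.6% of probe sets were above the floor. Symbols came from a platform annotation; 34945 probe sets had 1 symbol, 932 several and 9160 none, and 34741 of the first matched a RefSeq table of GRCm38.p6. For each gene the probe set brightest in mean linear signal was used. No test was possible; 2-fold was the threshold. Members and lists were chosen with earlier results of these data known. Named genes were mainly all members, list genes past 2-fold or among the 4 largest differences, and the 5 genes most like Calcb. Other genes named, among them Lyz2, Gnas, Pam, Crem, Il10 and some cell type markers, fall outside this rule. Python 3.11.15, pandas 2.3.3 and statsmodels 0.14.6 were used. The steps were tested on simulated 4-fold shifts in genes above background on both arrays. That simulation does not cover smaller differences or signals at the floor. Alternatives were other floors, scalings, thresholds and probe set rules.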

Additional observations from a re-analysis of the deposited data

How the results depend on the processing

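All alternatives were planned except those for Adm, which were chosen after seeing the data. A shift was counted as larger than the scatter when it exceeded 0.29 log2 units. Of 38 alternative values of the members and Adm, 36 stayed within it and 2 did not: Ramp2 was at a bound of -1.31 when the 75th percentile served as floor and at -2.21 with no floor and a pseudocount of 1. When the 99th percentile served as floor, Ramp2 was below background on both arrays, and after dropping the names in _a_at, _s_at and _x_at no Calcrl probe set was above background, so neither has a value there. The number of member genes at least 2-fold lower, 1 as reported, was 2 with the lower floor and 3 with no floor; 3 passed 1.5-fold and 1 passed 3-fold. Of 71 alternative list medians, 70 stayed within the scatter, and that of the endothelial markers, 0.39, was -0.020 after loess; the cause was not tested. The signs of list medians near 0 changed with the scaling: the median over all genes was 0.03 as reported and -0.03 after centring. No paired analysis was possible because each group has 1 array. Dim signals limit Ramp2 and Ramp3, and the number of arrays limits all values.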

Other observations

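Other neuropeptide genes and other receptors that raise cAMP were read from the same arrays, as values only. Npy, the gene of neuropeptide Y, was bright on both arrays (13.26 with control siRNA and 13.52 with HDAC9 siRNA, a difference of 0.25), and Bdnf, a neurotrophin gene, read 7.40 and 7.79. Nmur1, the receptor gene for neuromedin U, was at least 1.57-fold lower (6.99 and 4.14, the latter below the floor). The other 10 genes of that list with a probe set, including Tac1, the substance P gene, and Vip, were below the floor on both arrays. Of 11 other Gs-coupled receptor genes with a probe set, 5 were above background and 0 were past 2-fold. The prostanoid receptor genes Ptgir (8.91 and 8.61, -0.30), Ptger2 (10.10 and 9.88, -0.22) and Ptger4 (10.66 and 10.44, -0.22) were lower by amounts near or under the 0.29 scatter of single probe sets. Mc1r, a melanocortin receptor gene, was at a bound of 0.50 (5.77 and 6.84), and Adcyap1r1, the PACAP receptor gene, read 8.65 and 8.84.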
